A study of Mus musculus with 40 samples.

Results

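Rapamycin was given for 3 days to 3-month-old mice whose muscle has normal control of mTORC1, and the response of the extensor digitorum longus (EDL), a fast hindlimb muscle, was read by mRNA sequencing. The 10 libraries described here are 10 of the 40 of the series and were chosen by their labels alone: 5 from vehicle-treated mice (3mCON) and 5 from rapamycin-treated mice (3mCON+RM). Both groups were of genotype Tsc1fl/fl with the strain label Tsc1tm1Djk/J, and they carried the floxed alleles without Cre, so that Tsc1 was intact. All 10 were 3 months old and differed by treatment, which was intraperitoneal vehicle or rapamycin for 3 days. The labels state a rapamycin dose of 4 mg per kg. The study states a larger daily amount for the treatment of 3 days in TSCmKO mice of 9 months, and the methods give none for the mice described here. The other 30 libraries came from controls of 9 months (9mCON) and from TSCmKO mice of 3 and 9 months, in which Cre removes Tsc1 in skeletal muscle fibers, each with and without rapamycin. They serve here for comparison only.

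Rapamycin binds the immunophilin FKBP12, and the complex of both inhibits mTORC1, the kinase complex that couples nutrients and growth factors to protein synthesis. mTORC1 acts mainly on translation. Its best known targets are mRNAs with a 5′ terminal oligopyrimidine (TOP) tract, which encode ribosomal proteins and translation factors and start with a cytosine followed by a run of pyrimidines. mTORC1 also restrains autophagy and raises the activity of ATF4, a transcription factor for amino acid supply.

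The table listed 22844 genes, and 13006 of them reached 1 CPM, a count scaled to the size of its library, in 5 or more of the 20 libraries of 3 months and were tested. Total counts ran from 10988960 to 33945646 in 3mCON and from 8883870 to 35224669 in 3mCON+RM. Replicates correlated at 0.982 to 0.991 within 3mCON and at 0.983 to 0.993 within 3mCON+RM (log2 CPM + 1), and the counts of each pair of replicates varied at least 10.8 times more than counting error, so that no library was counted as a repeat of another. The common coefficient of biological variation was 14.7% in 3mCON and 13.6% in 3mCON+RM, against 24.4% and 20.3% in the corresponding groups of 9 months. The main fit used the 20 libraries of 3 months. 3mCON+RM replicate 2 stood apart on the first principal component, which held 23.9% of the variance, and the second, with 20.1%, separated the groups. This library had the lowest summed level of fibroblast, tendon and collagen genes of all 10. Values without it stand beside several of the list medians and counts. Fast fiber markers were present as the tissue label says: in TPM, which also scale by transcript length, Myh4, the myosin of the fastest fibers, averaged 13618 in 3mCON, and Myh7, the slow myosin, 22.99. In whole muscle, fewer cells of a type and less RNA per cell cannot be told apart.

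Rapamycin changed 352 genes, or 2.71% of those tested, of which 178 were higher (1.37%) and 174 lower (1.34%) at an adjusted p under 0.05. Translation factors, ribosomal and nucleolar proteins and noncoding hosts of small nucleolar RNAs were among the rises. Genes of branched-chain amino acid breakdown, effectors of the ATF4 pathway and guanylate-binding proteins were among the falls. Most changes were small: the median size was 0.47 on the log2 scale, 41 genes rose and 50 fell by 1.5-fold or more, and 11 rose and 10 fell by 2-fold or more. In 286 of the 352 genes, 146 higher and 140 lower, the values of the groups did not overlap, against 738 of all 13006 genes tested (5.67%). The count moved with single libraries: 176 genes passed without 3mCON+RM replicate 4, 211 without 3mCON+RM replicate 3 and 222 without 3mCON replicate 1. The median log2 fold change of all genes tested was close to 0, at -0.0047. When all 40 libraries were fitted together, which include the groups of 9 months with their wider spread, 92 genes passed, and all 92 were among the 352. With library totals as the only scaling, 340 genes passed, 116 higher and 224 lower, so that the share of rises went from 50.6% to 34.1%, and the median log2 fold change of all genes became -0.05.

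**Figure D1:**
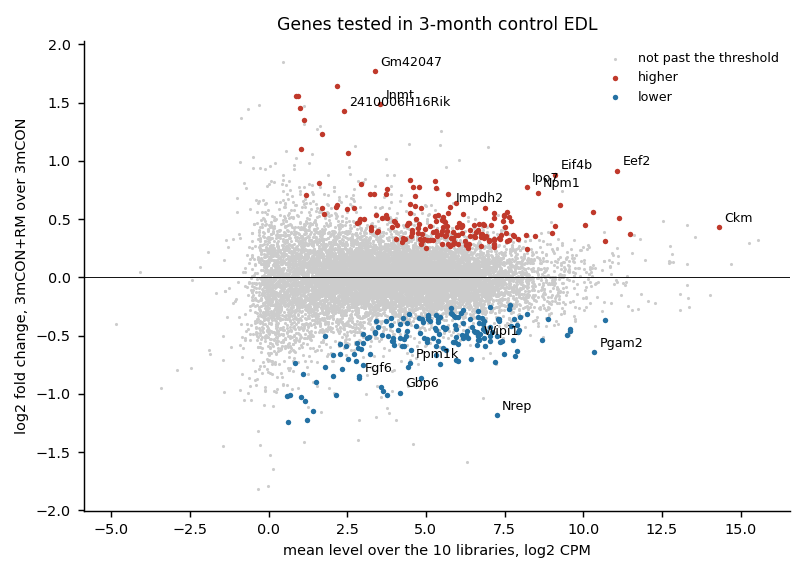
Each point is 1 of the 13006 genes tested. The horizontal axis is the mean level over the 10 libraries (log2 CPM) and the vertical axis the log2 fold change of 3mCON+RM over 3mCON. Red marks the 178 genes that were higher, blue the 174 that were lower and grey the rest. Eef2 rose by 0.92 and Nrep fell by 1.18.

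The smallest p-values of the whole comparison were those of the translation factor genes Eef2 and Eif4b. Of 54 initiation and elongation factors tested, 12 rose and 0 fell, or 22.2% against the 2.71% of all genes, and the median of the list was 0.15. Eef2, which moves the ribosome along the mRNA (chr10:81176631-81182498, plus strand, GRCm38), stood at 1368, 1390.5, 1607, 1713 and 1413 CPM in the 5 3mCON libraries and 2565, 2912, 2864, 3059.7 and 2752 CPM in the 5 3mCON+RM libraries. Every rapamycin library exceeded every vehicle library, and the rise was 1.89-fold (log2 fold change 0.92 ± 0.09, SE, adjusted p = 2.44e-06). Eif4b, a cofactor of the helicase that opens the 5′ end of mRNAs (chr15:102073773-102097173, plus strand), measured 369, 387, 406, 429 and 339 CPM in the 5 3mCON libraries and 658, 716, 757, 771 and 661 CPM in the 5 3mCON+RM libraries. Its groups did not overlap either (log2 fold change 0.88 ± 0.08, adjusted p = 2.44e-06), and both genes kept an adjusted p of at most 2.8e-05 when any of the 10 libraries was left out.

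Other factors rose by less. Eif3e, a subunit of initiation factor 3, was at 141, 145, 147, 161 and 135 CPM in the 5 3mCON libraries and 219.7, 219.7, 185, 213 and 185 CPM in the 5 3mCON+RM libraries (log2 fold change 0.49 ± 0.09, adjusted p = 0.00423). Eif1, which helps choose the start codon, went from a mean of 893 ± 79.1 to 1220.2 ± 94.5 CPM (SD, n = 5) (log2 fold change 0.45 ± 0.08, adjusted p = 0.00512), and about 14.5% of its 31-base words also occur in other genes of the table. In neither gene did the groups overlap. Further rises, named after their values were seen, were those of the elongation factors Eef1a1 (0.62) and Eef1d (0.38), of the initiation factor 3 subunits Eif3l (0.39), Eif3b (0.36), Eif3f (0.32) and Eif3h (0.29), and of Eif4a2 (0.44) and Eif2a (0.41), as log2 fold changes, with overlapping groups in Eif3f and Eif2a. Over the fits without 1 library 7 to 12 factors passed. Without 3mCON+RM replicate 2, 8 factors passed, and the median was 0.13. With all 40 libraries, 5 passed.

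Cytosolic ribosomal proteins had mostly positive fold changes of small size. Of 83 tested, 80 had a positive log2 fold change (96.4%, against 49% of all genes), with a median of 0.21. Of the 83, 11 rose and 1 fell (14.5% called, against 2.71% of all genes). Rpl7a, a protein of the large subunit, was at 219.9, 246, 267, 289 and 249 CPM in the 5 3mCON libraries and 298, 363, 339.6, 361 and 279 CPM in the 5 3mCON+RM libraries. Its groups overlapped narrowly, with the lowest rapamycin value, 279 CPM, below the highest vehicle value, 289 CPM (log2 fold change 0.37 ± 0.09, adjusted p = 0.0199). Rpl19 (log2 fold change 0.36 ± 0.08, adjusted p = 0.0236) and Rps7 (log2 fold change 0.33 ± 0.08, adjusted p = 0.0211) rose without overlap. The calls of Rpl7a, Rps7 and Rpl19 were each lost in 5 of the 10 fits that left out a library, where adjusted p rose to 0.0696 (Rpl7a, without 3mCON+RM replicate 4), 0.067 (Rps7) and 0.0664 (Rpl19, both without 3mCON+RM replicate 2). Rpl22l1, a paralog of the ribosomal protein gene Rpl22, went the other way, from 42.5, 62.3, 53.3, 45.4 and 46.03 CPM in 3mCON to 31.9, 33.1, 34.2, 39.6 and 31.2 CPM in 3mCON+RM (log2 fold change -0.55 ± 0.10, adjusted p = 0.00512), with all rapamycin values below all vehicle values. Of its 31-base words 14.8% occur in other genes, most often Gm15421, so that its level is uncertain. The calls of single genes depended on several single libraries. Without 3mCON+RM replicate 2, 1 of the 83 passed, with a median of 0.17, and over the 10 fits that each left out 1 library the number ran from 1 to 12. With all 40 libraries, 0 passed with edgeR, 16 had an unadjusted p under 0.05, and DESeq2 on the 20 libraries called 21. The median stayed between 0.16 and 0.25 in every alternative fit. Among mitochondrial ribosomal proteins, of 78 tested, 23.1% were positive, the median was -0.08, and 1, Mrpl9, rose (log2 fold change 0.37 ± 0.08, adjusted p = 0.0185), or 1.28% against 2.71% of all genes. Without 3mCON+RM replicate 2 the median was -0.14 and 3 of the 78 passed, and over the 10 fits without 1 library 0 to 3 passed. Mrpl9 no longer passed in 3 of the 10 fits that left out a library, and its adjusted p reached 0.06 without 3mCON+RM replicate 4.

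Genes of ribosome assembly were the next group. Of 45 ribosome biogenesis genes, 5 rose and 0 fell, or 11.1% against the 1.37% of all genes that were higher, and the median was 0.16. Utp14a, part of the complex that cuts the precursor of the small subunit (chrX:48256862-48282453, plus strand), stood at 18.2, 17.3, 15.8, 18.8 and 19.4 CPM in the 5 3mCON libraries and 29.2, 35.3, 29.03, 33.4 and 26.4 CPM in the 5 3mCON+RM libraries. All 5 rapamycin values lay above 19.4 CPM, the highest vehicle value (log2 fold change 0.78 ± 0.10, adjusted p = 0.0002). Npm1, the nucleolar chaperone nucleophosmin, was at 298, 272, 263, 313 and 269 CPM in the 5 3mCON libraries and 473, 426, 434, 579 and 429 CPM in the 5 3mCON+RM libraries, again without overlap (log2 fold change 0.73 ± 0.10, adjusted p = 0.000397). Ipo7, an importin that carries ribosomal proteins into the nucleus and was in none of the lists (chr7:110018274-110056609, plus strand), measured 230.1, 222, 213, 222 and 199 CPM in the 5 3mCON libraries and 357, 381, 356, 389.7 and 379 CPM in the 5 3mCON+RM libraries. Its groups did not overlap (log2 fold change 0.78 ± 0.08, adjusted p = 8.54e-06), with means of 217 ± 11.8 and 372 ± 15.3 CPM (SD, n = 5). Tsr1 and the nucleolar helicase Ddx21 rose by 0.53 and 0.47 (adjusted p = 0.0236 and 0.0332). These calls were lost in some fits without 1 library: Tsr1 (5 of the 10, adjusted p up to 0.0745, without 3mCON+RM replicate 2) and Ddx21 (8 of the 10, adjusted p up to 0.0856, without 3mCON replicate 3). Over the 10 such fits 2 to 5 biogenesis genes passed, and with all 40 libraries 1 passed.

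Noncoding transcripts, many of which host small nucleolar RNAs in their introns, held some of the larger fold changes. The study's methods name a reference of protein-coding transcripts, yet the deposited table lists noncoding genes too, so that the set of transcripts behind these values is not settled. Of 15 tested in that list, 4 rose and 0 fell (26.7%, against 1.37% of all genes), with a median of 0.37. 2410006H16Rik, a noncoding transcript outside the list (chr11:62602877-62604807, plus strand), was at 2.24, 2.46, 3.97, 3.18 and 2.29 CPM in the 5 3mCON libraries and 4.27, 9.71, 6.75, 10.3 and 7.29 CPM in the 5 3mCON+RM libraries. The lowest rapamycin value, in replicate 1, stood just above the highest vehicle value, in replicate 3 (log2 fold change 1.43 ± 0.21, adjusted p = 0.000787). 1110038B12Rik went from 3.70 ± 0.670 to 7.78 ± 1.07 CPM (log2 fold change 1.07 ± 0.16, adjusted p = 0.000889). Epb41l4aos (1.23), Zfas1 (0.71) and Snhg6 (0.53) rose as well, all without overlap, although in Snhg6 the lowest rapamycin and the highest vehicle value were equal after rounding. The call of Snhg6 was lost in 6 of the 10 fits without 1 library (adjusted p up to 0.0892, without 3mCON+RM replicate 2). Epb41l4aos was low, at 1.68, 0.910, 2.42, 2.59 and 1.87 CPM in 3mCON and 3.76, 5.24, 4.61, 6.03 and 3.49 CPM in 3mCON+RM.

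Supply genes of protein and nucleotide synthesis added 4 rises. Impdh2, the rate-limiting enzyme of guanine nucleotide synthesis, stood at 40.5, 45.1, 41.9, 42.9 and 48.2 CPM in the 5 3mCON libraries and 57.7, 73.8, 68.5, 71.6 and 59.5 CPM in the 5 3mCON+RM libraries, with no overlap (log2 fold change 0.60 ± 0.08, adjusted p = 0.000333). Ctps, which makes CTP, also rose (log2 fold change 0.56 ± 0.09, adjusted p = 0.00206). They were the 2 past the threshold of 29 nucleotide synthesis genes (6.9%, against 2.71% of all genes), and the median of that list was 0.06, and 0.01 without 3mCON+RM replicate 2. Of 20 aminoacyl-tRNA synthetases, Vars, with overlapping groups (log2 fold change 0.48 ± 0.11, adjusted p = 0.0196), and Kars (log2 fold change 0.32 ± 0.08, adjusted p = 0.0357) rose and 0 fell (10% of the list). Their calls were lost in fits that left out 1 library: Vars (5 of the 10, adjusted p up to 0.06, without 3mCON+RM replicate 4) and Kars (8 of the 10, adjusted p up to 0.0975, without 3mCON+RM replicate 2).

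The pyrimidine runs at the starts of these genes are shown because they are the feature by which mTORC1 is known to select mRNAs for translation. The windows come from RefSeq (GRCm38.p6, sense strand, 5′ to 3′). Capitals mark a C followed by 6 or more pyrimidines whose C lies within 25 bases of the annotated start. Such a run was in 25 of the 104 named genes with a RefSeq promoter. It was not found in the windows of Eif1, Rpl19, Utp14a, Tsr1, Impdh2, Ctps, Zfas1 and 1110038B12Rik, which rose. It was found in the windows of Ppm1k, Kcnab1 and Dlat, which fell. Windows are shown for 4 rising genes with a run and for Rpl22l1, which also fell.
Eif4b, chr15:102073775-102073804, plus strand: ccgcgccaCCCCCTCgcgctgctttacgaa
Ipo7, chr7:110018298-110018327, plus strand: ccttggcgCTTCTCTTTCCTTTCgcgccgg
Rpl7a, chr2:26910787-26910816, plus strand: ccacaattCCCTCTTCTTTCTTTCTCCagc
2410006H16Rik, chr11:62602865-62602894, plus strand: cgcgccgtCTTTCTCTgcggccatcatggg
Rpl22l1, chr3:28805503-28805532, plus strand: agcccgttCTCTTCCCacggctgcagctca
The run of Rpl7a was the longest of the 5, at 19 bases, and spanned the annotated start, while that of Eif4b had 7 bases, with the C at base 11 of the annotated transcript. Rpl22l1, which fell, had a run of 8 bases. Annotated starts are not measured starts in this muscle, so that the distance to the true first base is unknown. To count such runs evenly, 1 GENCODE M21 transcript a gene was searched on the sense strand for the same run with its C in the first 25 bases. It was present in 12.1% of 13000 tested genes with a transcript, in 19.7% of the 178 that rose and in 9.77% of the 174 that fell. The shares were 30.1% of cytosolic ribosomal proteins and 24.1% of translation factors, but 8.89% of ribosome biogenesis genes and 5.13% of mitochondrial ribosomal proteins. Among the genes that rose, those with the run had a median log2 fold change of 0.43 and those without it 0.44. A stricter run of 8 or more pyrimidines after the C was found in 5.12% of all, 8.43% of rising and 4.02% of falling genes. The pattern and its limits were chosen with the results known, and these shares are descriptions without a test.

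**Figure D2:**
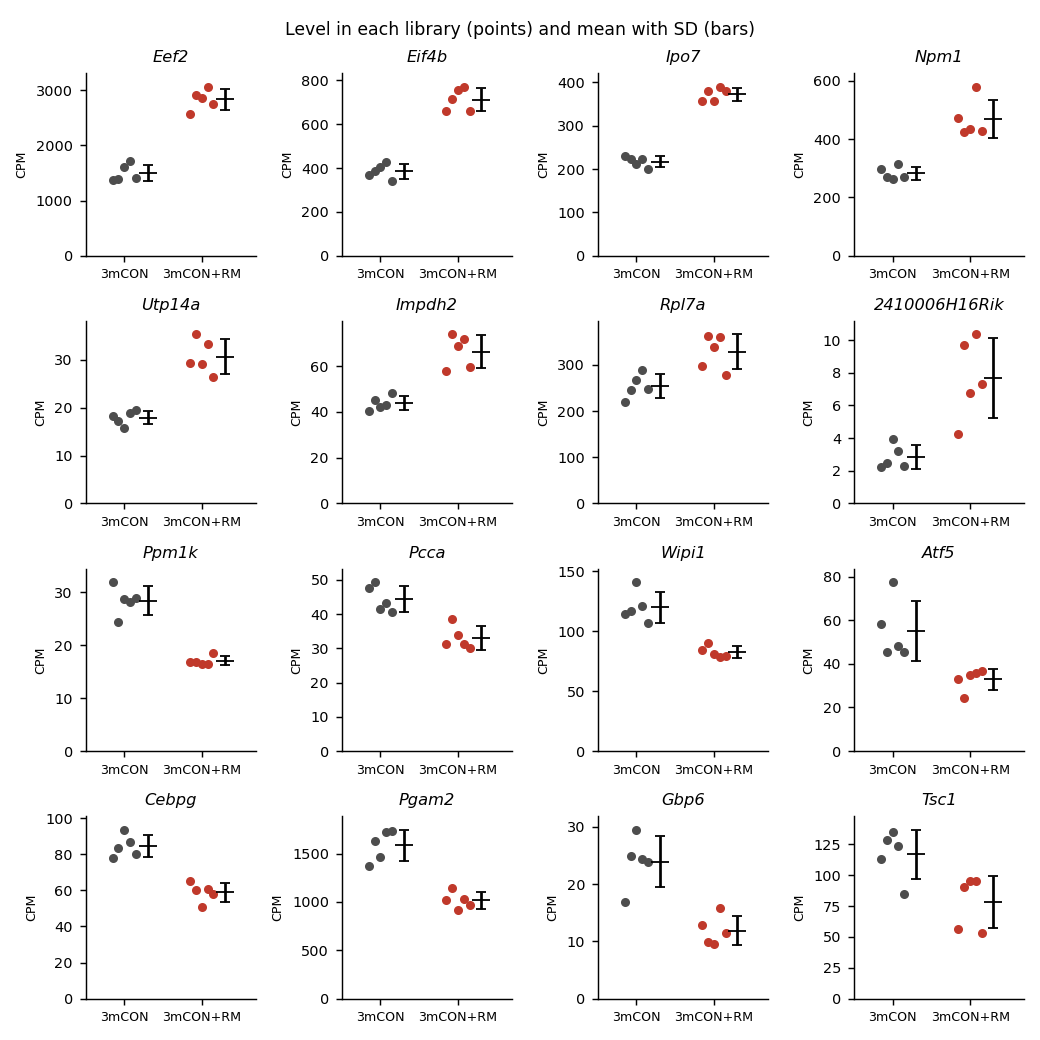
Each panel gives 1 gene, with the level (CPM, linear axis from 0) in each of the 5 3mCON libraries (grey) and the 5 3mCON+RM libraries (red), and the mean with its SD beside them. The first 8 genes were higher and the last 8 lower with rapamycin, and the groups overlap in Rpl7a and Tsc1.

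Genes of branched-chain amino acid catabolism, which breaks down leucine, isoleucine and valine in mitochondria, had the largest share of falls among the 61 gene lists. Of 16 tested, 6 fell and 0 rose, or 37.5% against 1.34% of all genes that were lower, with a median of -0.25. Bcat2, the transaminase of the first step and named after its values were seen, was at 49.9, 46.6, 68.9, 56.9 and 59.6 CPM in the 5 3mCON libraries and 32.03, 46.2, 42.6, 35.3 and 29.8 CPM in the 5 3mCON+RM libraries, with the highest rapamycin value just under the lowest vehicle value (log2 fold change -0.61 ± 0.15, adjusted p = 0.0367). Dbt, a core subunit of the branched-chain ketoacid dehydrogenase that commits the carbon skeletons to breakdown, measured 65.2, 55.8, 58.2, 59.7 and 59.6 CPM in the 5 3mCON libraries and 37.2, 45.2, 43.9, 36.1 and 31.9 CPM in the 5 3mCON+RM libraries (log2 fold change -0.62 ± 0.12, adjusted p = 0.00633). Ppm1k, the phosphatase that activates this dehydrogenase and was outside the list (chr6:57506502-57535468, minus strand), was at 31.9, 24.3, 28.7, 28.1 and 28.8 CPM in the 5 3mCON libraries and 16.8, 16.9, 16.4, 16.5 and 18.5 CPM in the 5 3mCON+RM libraries. All 5 rapamycin values of Ppm1k were below the lowest vehicle value (log2 fold change -0.74 ± 0.11, adjusted p = 0.00049).

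Enzymes further down the same pathway fell too. Mccc2 and Mccc1, the subunits of methylcrotonyl-CoA carboxylase in the leucine branch (Mccc1 named after its values were seen), fell by 0.52 and 0.31 on the log2 scale (adjusted p = 0.00773 and 0.0169). Pcca, of propionyl-CoA carboxylase, was at 47.6, 49.4, 41.6, 43.2 and 40.7 CPM in the 5 3mCON libraries and 31.2, 38.7, 33.98, 31.2 and 30.1 CPM in the 5 3mCON+RM libraries (log2 fold change -0.43 ± 0.08, adjusted p = 0.00423). Mut, the methylmalonyl-CoA mutase that follows it, was at 121, 130.2, 105, 113 and 122 CPM in the 5 3mCON libraries and 81.1, 85.6, 89.1, 82.8 and 80.9 CPM in the 5 3mCON+RM libraries (log2 fold change -0.50 ± 0.09, adjusted p = 0.00431). None of the 4 overlapped between groups. Over the 10 fits that left out 1 library each, 5 to 7 genes of the list passed, and the calls of Bcat2 and Mccc1 in them are not given singly. With all 40 libraries 2 passed.

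Lists of energy metabolism held from 0 to 2 falls each. Of 22 glycolysis genes, 2 fell (9.09%, against 1.34% of all genes) and the median was -0.12: Pgam2, the muscle phosphoglycerate mutase, dropped from 1372, 1629.5, 1465, 1722 and 1736 CPM to 1019.6, 1146, 919.9, 1027 and 967 CPM without overlap (log2 fold change -0.64 ± 0.12, adjusted p = 0.005), and Tpi1 fell with overlapping groups (log2 fold change -0.36 ± 0.09, adjusted p = 0.0383). Pdhx (log2 fold change -0.46 ± 0.09, adjusted p = 0.00577) and Dlat (log2 fold change -0.36 ± 0.10, adjusted p = 0.0442), components of the pyruvate dehydrogenase complex, were the 2 of 27 genes of the tricarboxylic acid cycle and pyruvate use that fell (7.41%). Ndufs1 was 1 of 36 complex I subunits (2.78%) past the threshold and fell with overlapping groups (log2 fold change -0.35 ± 0.09, adjusted p = 0.0272), and 19.4% of these subunits had a positive log2 fold change, against 49% of all genes (median -0.14). Complexes II to IV (28 genes, 21.4% positive, median -0.12), ATP synthase (15 genes, 33.3% positive, median -0.12) and fatty acid oxidation (36 genes, 44.4% positive, median -0.06) held no gene past the threshold with edgeR. Over the alternative fits the median of complexes II to IV lay between -0.20 (without 3mCON+RM replicate 2) and -0.08 (without 3mCON+RM replicate 4), that of ATP synthase between -0.16 (library totals only) and -0.06 (without 3mCON replicate 4), that of fatty acid oxidation between -0.18 (without 3mCON+RM replicate 2) and -0.02 (without 3mCON+RM replicate 4), that of complex I between -0.20 (without 3mCON+RM replicate 2) and -0.09 (without 3mCON+RM replicate 4) and that of glycolysis between -0.17 (without 3mCON replicate 3) and -0.07 (without 3mCON replicate 5). Without 3mCON+RM replicate 2, 1 glycolysis gene passed. At an unadjusted p under 0.05 the lists with no call held, in the order above, 3, 2 and 1 genes, where 16.8% of all genes had such a p, and DESeq2 called none of them. Coq7, an enzyme of ubiquinone synthesis, was at 27.96, 29.9, 26.2, 26.6 and 26.2 CPM in the 5 3mCON libraries and 18.5, 18.1, 13.5, 14.3 and 16.3 CPM in the 5 3mCON+RM libraries, with no overlap between the groups (log2 fold change -0.76 ± 0.12, adjusted p = 0.00149). Among regulators, Perm1, a muscle factor that acts with PGC-1 and estrogen-related receptors, fell (log2 fold change -0.63 ± 0.17, adjusted p = 0.0441), and Pprc1, a PGC-1 related coactivator, rose (log2 fold change 0.47 ± 0.10, adjusted p = 0.0157). They were 2 of 15 such regulators tested (13.3%, against 2.71% of all genes). Several of these calls were lost in fits without 1 library: Tpi1 (8 of the 10, adjusted p up to 0.11, without 3mCON+RM replicate 4), Dlat (8 of the 10, adjusted p up to 0.124, without 3mCON+RM replicate 4), Ndufs1 (6 of the 10, adjusted p up to 0.082, without 3mCON+RM replicate 4) and Perm1 (9 of the 10, adjusted p up to 0.111, without 3mCON+RM replicate 4).

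Some effectors of the ATF4 pathway were lower. Of 18 tested, 4 fell and 0 rose, or 22.2% against the 1.34% of all genes that were lower, and the median was -0.32 (-0.40 to -0.21 over the alternative fits, highest without 3mCON replicate 5). Atf5, a transcription factor of the same family (chr7:44812256-44816658, minus strand), stood at 58.4, 45.5, 77.5, 48.3 and 45.4 CPM in the 5 3mCON libraries and 32.97, 24.5, 34.8, 35.9 and 36.5 CPM in the 5 3mCON+RM libraries, with the 5 rapamycin values below all vehicle values (log2 fold change -0.74 ± 0.15, adjusted p = 0.00676). Cebpg, a dimer partner of ATF4, was at 77.9, 83.6, 93.5, 86.7 and 80.3 CPM in the 5 3mCON libraries and 65.3, 59.9, 50.7, 60.6 and 58.2 CPM in the 5 3mCON+RM libraries (log2 fold change -0.52 ± 0.09, adjusted p = 0.00423). Ddit3, which encodes CHOP, fell from 9.33 ± 1.46 to 6.11 ± 0.574 CPM (log2 fold change -0.61 ± 0.11, adjusted p = 0.00423). The receptor gene Vldlr fell with overlapping groups (log2 fold change -0.46 ± 0.11, adjusted p = 0.0279), and its call was lost in 7 of the 10 fits without 1 library (adjusted p up to 0.0888, without 3mCON+RM replicate 4). Atf4 itself, named after its values were seen, was at 172, 143, 182, 174 and 183 CPM in the 5 3mCON libraries and 166, 195, 166, 168 and 145 CPM in the 5 3mCON+RM libraries, and the groups overlapped (log2 fold change -0.03 ± 0.09, adjusted p = 0.925). Of 18 genes of serine, one-carbon and asparagine synthesis, 1 passed (5.56%, against 2.71% of all genes): Psph, the last enzyme of serine synthesis, fell (log2 fold change -0.56 ± 0.12, adjusted p = 0.0151). Of 20 amino acid transporters 0 passed with edgeR (smallest adjusted p = 0.287), 1 had an unadjusted p under 0.05, and DESeq2 called 0. Over all genes 16.8% had such a p. With all 40 libraries, 2 ATF4 effectors passed.

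**Figure D3:**
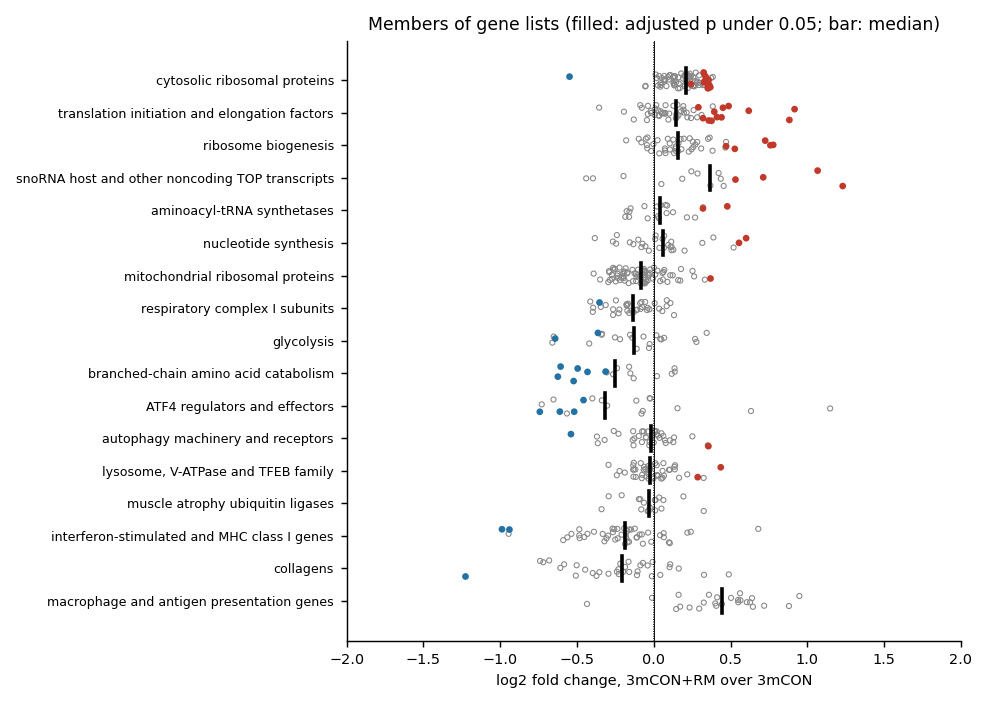
Each point is the log2 fold change (3mCON+RM over 3mCON) of a member of 1 of 17 gene lists. Filled points passed the adjusted threshold (red higher, blue lower), open ones did not, black bars are list medians and the dotted line is the median of all genes. Ribosomal proteins sit narrowly to the right of 0, branched-chain catabolism and ATF4 effectors to the left, and the macrophage list, with no filled point, has the highest median of the 17, 0.44.

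The mTORC1 pathway itself held calls in Tsc1 and Tsc2. Of 11 genes of the mTOR complexes and the rapamycin receptor, 0 passed with edgeR, 3 had an unadjusted p under 0.05, and DESeq2 called 0. Over all genes, 16.8% had an unadjusted p under 0.05. Mtor was at 63.4, 61.9, 56.7, 58.9 and 55.5 CPM in the 5 3mCON libraries and 59.7, 74.8, 74.1, 72.4 and 78.4 CPM in the 5 3mCON+RM libraries, with 4 rapamycin values above the vehicle range (log2 fold change 0.28 ± 0.09, adjusted p = 0.0981), and it passed without 3mCON+RM replicate 1. Rptor, the subunit that defines mTORC1, had means of 49.8 and 48.9 CPM (log2 fold change -0.03 ± 0.07, adjusted p = 0.893), and Fkbp1a, the gene of FKBP12, 149.5 and 148 CPM (log2 fold change -0.02 ± 0.08, adjusted p = 0.956). In Tsc1, the gene floxed in both groups (chr2:28641228-28691167, plus strand), levels were 113, 129, 135, 123 and 84.6 CPM in the 5 3mCON libraries and 56.6, 90.7, 94.96, 95.1 and 53.3 CPM in the 5 3mCON+RM libraries. Tsc1 fell, but the groups overlapped, since vehicle replicate 5 was below 3 of the rapamycin values (log2 fold change -0.58 ± 0.15, adjusted p = 0.0357). Tsc2, its partner in the complex that restrains mTORC1, rose (log2 fold change 0.31 ± 0.08, adjusted p = 0.0326). They were 2 of the 5 genes of the TSC complex and Rheb (40%, against 2.71% of all genes), and 0 to 1 of the 5 passed over the fits without 1 library. Both calls were lost in fits without 1 library: Tsc1 (6 of the 10, adjusted p up to 0.0875, without 3mCON+RM replicate 1) and Tsc2 (8 of the 10, adjusted p up to 0.0886, without 3mCON+RM replicate 3). With all 40 libraries neither passed.

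Upstream sensors of amino acids and downstream pathways gave 1 or 2 calls a list. Sesn3, a sestrin that holds back mTORC1 when amino acids are low, was at 54.4, 48.3, 51.9, 49.6 and 39.7 CPM in the 5 3mCON libraries and 35.6, 23.3, 35.3, 28.7 and 32.1 CPM in the 5 3mCON+RM libraries, without overlap (log2 fold change -0.66 ± 0.14, adjusted p = 0.0106), and Nprl3, a subunit of the GATOR1 complex, rose (log2 fold change 0.45 ± 0.10, adjusted p = 0.0123), as 2 of 24 genes in that list (8.33%, against 2.71% of all genes). In that list 4 genes passed without 3mCON+RM replicate 2 and 5 with DESeq2. Gsk3b, the AKT target kinase, fell (log2 fold change -0.40 ± 0.10, adjusted p = 0.0276), as 1 of 28 genes of insulin, IGF, AKT and FoxO signalling (3.57%). Of 38 autophagy genes, Wipi1, which binds the forming autophagosome, fell from 114, 117, 141, 121 and 107 CPM to 84.3, 89.9, 81.1, 78.1 and 79.3 CPM, without overlap (log2 fold change -0.54 ± 0.07, adjusted p = 0.000333). Map1lc3a, an LC3 gene, rose (log2 fold change 0.36 ± 0.09, adjusted p = 0.0329). They were the 2 called in the autophagy list (5.26%), which had a median of -0.02, and 1 gene past the threshold and a median of -0.03 without 3mCON+RM replicate 2 (0.0028 without 3mCON replicate 5). Of 47 lysosomal genes, 2 rose and 0 fell (4.26%), and the rises included the hydrolase Hexa (log2 fold change 0.44 ± 0.08, adjusted p = 0.00512). Over the 10 fits without 1 library 1 to 2 lysosomal genes passed. Losses in fits without 1 library included Gsk3b (6 of the 10, adjusted p up to 0.0799, without 3mCON+RM replicate 4) and Map1lc3a (7 of the 10, adjusted p up to 0.0953, without 3mCON+RM replicate 2).

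Lists of protein turnover held calls in both directions. Psmd4, the ubiquitin receptor of the proteasome, rose (log2 fold change 0.54 ± 0.11, adjusted p = 0.00796), while Psmd14, its deubiquitinase, fell (log2 fold change -0.46 ± 0.12, adjusted p = 0.0326), and so did Nfe2l1, the transcription factor of proteasome genes, from 828, 865, 959, 881 and 671 to 626, 583, 594, 584 and 589.9 CPM (log2 fold change -0.50 ± 0.09, adjusted p = 0.00536). They were the 3 of 49 genes past the threshold in that list (6.12%, against 2.71% of all genes), with a median of 0.01, which was -0.04 without 3mCON+RM replicate 2. Of the chaperones and unfolded protein response genes of the endoplasmic reticulum (26 tested), Selenos fell (log2 fold change -0.52 ± 0.09, adjusted p = 0.00388) and P4hb, protein disulfide isomerase, rose (log2 fold change 0.37 ± 0.08, adjusted p = 0.0176), or 7.69% of the list. Of 18 ubiquitin ligases of muscle atrophy, 0 passed with edgeR, 4 had an unadjusted p under 0.05, and DESeq2 called 1, where 16.8% of all genes had such a p. Over the fits without 1 library 0 to 1 passed. Trim63 (MuRF1), named with Fbxo32 after their values were seen, was at 32.7, 33.9, 41.7, 32.5 and 34.6 CPM in the 5 3mCON libraries and 23.7, 47.7, 28.5, 25.9 and 26.2 CPM in the 5 3mCON+RM libraries (log2 fold change -0.21 ± 0.26, adjusted p = 0.767) and Fbxo32 (atrogin-1) averaged 551 and 554 CPM (log2 fold change 0.01 ± 0.24, adjusted p = 0.994). The call of Psmd14 was lost in 9 of the 10 fits without 1 library (adjusted p up to 0.0822, without 3mCON+RM replicate 2), and that of P4hb in 1 (adjusted p = 0.0614, without 3mCON+RM replicate 4).

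Guanylate-binding proteins, GTPases that interferon induces, were among the largest falls. Gbp6 was at 16.9, 24.9, 29.5, 24.4 and 23.9 CPM in the 5 3mCON libraries and 12.8, 9.85, 9.56, 15.9 and 11.4 CPM in the 5 3mCON+RM libraries, and the highest rapamycin value stayed under the lowest vehicle value (log2 fold change -0.99 ± 0.20, adjusted p = 0.00805). Gbp10 (log2 fold change -1.01, adjusted p = 0.00825) and Gm43302 (-0.97, adjusted p = 0.00633) lie in the same stretch of chromosome 5 (GRCm38, 105214907 to 105293698). They are not separate evidence: of their 31-base words, 89.8% (Gbp10) and 100% (Gm43302) occur in other genes, most often in Gbp6, which shares 74.1% of its own, so that the reads of the 3 cannot be told apart. Iigp1, an interferon-induced GTPase on another chromosome, fell from 11.3, 15.6, 13.04, 19.8 and 18.9 to 8.37, 7.65, 9.00, 8.20 and 7.98 CPM (log2 fold change -0.94 ± 0.23, adjusted p = 0.0293). Its call was lost in 8 of the 10 fits without 1 library (adjusted p up to 0.0838, without 3mCON replicate 4). Of 49 interferon-stimulated and MHC class I genes, 2 fell (Gbp6 and Iigp1) and 0 rose, or 4.08% against the 1.34% of all genes that were lower, and 1 to 2 passed over the 10 fits without 1 library. Of the list 16.3% were positive, against 49% of all genes, with a median of -0.19. The summed level of the list was 647, 618, 671, 772 and 815 CPM in 3mCON and 625, 610.2, 615, 709.5 and 630.5 CPM in 3mCON+RM, so that the ranges overlapped.

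Macrophage and matrix genes varied widely between libraries. All 8 macrophage markers had a positive log2 fold change (median 0.49), but 0 passed with edgeR (smallest adjusted p = 0.295), 1 had an unadjusted p under 0.05, and DESeq2 called 0, where 16.8% of all genes had such a p. Their summed level was 159, 83.04, 92.1, 49.2 and 65.1 CPM in 3mCON and 139, 63.5, 122, 134 and 153 CPM in 3mCON+RM. 3mCON replicate 1 was the highest of all and 3mCON+RM replicate 2 was lower than the other 4 rapamycin libraries, so that the groups overlapped. Of 25 macrophage and antigen presentation genes, 23 were positive (median 0.44, and 0.62 without that library), and none passed in any fit without 1 library. The 9 fibroblast markers summed to 3418, 2023, 2240.1, 1590.4 and 1561 CPM in 3mCON and 2456, 1102, 2283, 2168 and 2658 CPM in 3mCON+RM. Collagens had a median of -0.21 over 34 genes, which became -0.03 without 3mCON+RM replicate 2, and the 1 call (2.94%, against 2.71% of all genes), the cartilage collagen gene Col9a1 (log2 fold change -1.23 ± 0.30, adjusted p = 0.0274), was lost in 5 of the 10 fits without 1 library (adjusted p up to 0.0975, without 3mCON replicate 3). The 8 smooth muscle and pericyte markers summed to 3898, 4026, 4353, 4291 and 4090.1 CPM in 3mCON and 4564, 4956, 4755, 5541 and 4978 CPM in 3mCON+RM. Most of that sum was Des, the desmin gene, which is also abundant in muscle fibers and was at 2884, 3106, 3536, 3370.4 and 2911 CPM in the 5 3mCON libraries and 3589, 4125, 3845, 4445 and 3867 CPM in the 5 3mCON+RM libraries (log2 fold change 0.33 ± 0.10, adjusted p = 0.0887). The groups did not overlap in Des or in the sum, but in the sum of the other 7 markers, taken after the values were seen, they did: it was 1014, 919, 817, 920.1 and 1179 CPM in 3mCON and 974, 831, 910.0, 1097 and 1112 CPM in 3mCON+RM. Of the 8 markers, 4 were positive and none passed with edgeR (2 at an unadjusted p under 0.05, 1 with DESeq2). Of the 12 lymphocyte markers only Ptprc reached the level needed for testing. Of the 12 marker lists, 11 held no gene past the threshold. The exception was Ckm, the muscle creatine kinase (log2 fold change 0.43 ± 0.12, adjusted p = 0.0458), in the fast fiber list, and its call was lost in 7 of the 10 fits (adjusted p up to 0.141, without 3mCON+RM replicate 3). The part of these differences in the results above was not tested.

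**Figure D4:**
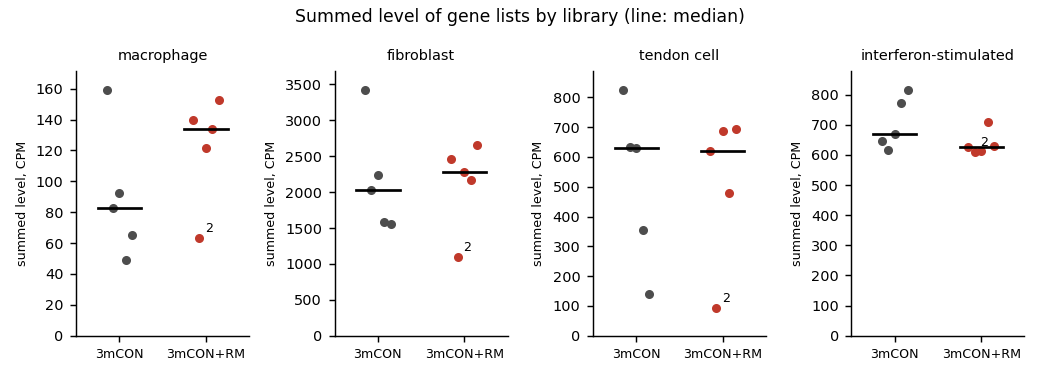
Summed level (CPM) of macrophage, fibroblast, tendon cell and interferon-stimulated gene lists in each 3mCON (grey) and 3mCON+RM (red) library, with the group median as a line. The digit 2 marks 3mCON+RM replicate 2, which is the lowest rapamycin library in all 4 panels, and the groups overlap in each.

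Among the 12 largest rises and 12 largest falls, several genes stood outside these groups. Gm42047, a long noncoding RNA (chr8:121833247-121841178, plus strand), had the largest rise of the genes past the threshold, with 4.65, 4.18, 5.68, 6.72 and 1.61 CPM in the 5 3mCON libraries and 18.2, 16.3, 19.01, 20.1 and 8.33 CPM in the 5 3mCON+RM libraries (log2 fold change 1.77 ± 0.38, adjusted p = 0.0163), although 48.9% of its 31-base words occur in other genes, most often Gm48362. Inmt, a methyltransferase for small amines, was at 8.74, 8.91, 5.77, 4.34 and 3.48 CPM in the 5 3mCON libraries and 15.9, 14.6, 17.6, 20.4 and 17.9 CPM in the 5 3mCON+RM libraries, again without overlap (log2 fold change 1.49 ± 0.25, adjusted p = 0.00304). Zkscan17, a zinc finger protein (log2 fold change 0.82 ± 0.11, adjusted p = 0.000341), and Dglucy, a mitochondrial D-glutamate cyclase (log2 fold change 0.77 ± 0.12, adjusted p = 0.00154), rose with every rapamycin value above the vehicle range. Dpep1, a membrane dipeptidase (log2 fold change 0.83 ± 0.20, adjusted p = 0.0237), and Tmem100 (log2 fold change 0.78 ± 0.20, adjusted p = 0.0367) rose too, and their calls were lost in fits without 1 library: Dpep1 (4 of the 10, adjusted p up to 0.0717, without 3mCON replicate 4) and Tmem100 (7 of the 10, adjusted p up to 0.0834, without 3mCON replicate 2).

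Nrep, a small protein of regenerating tissue, showed the largest fall among genes that averaged at least 5 CPM and did not overlap, with 228, 231, 222, 219.7 and 156 CPM in the 5 3mCON libraries and 117, 70.4, 76.4, 85.2 and 118 CPM in the 5 3mCON+RM libraries (log2 fold change -1.18 ± 0.25, adjusted p = 0.0147). Vehicle replicate 5 was the lowest of its group and still above the rapamycin range. Fgf6, a growth factor made by muscle, fell (log2 fold change -0.86 ± 0.16, adjusted p = 0.00512). Kcnab1, a beta subunit gene of voltage-gated potassium channels, was at 8.85, 10.01, 12.8, 8.30 and 10.4 CPM in the 5 3mCON libraries and 5.13, 5.10, 5.85, 6.31 and 7.20 CPM in the 5 3mCON+RM libraries, without overlap (log2 fold change -0.75 ± 0.16, adjusted p = 0.0121). Kcnc1, a pore subunit gene of such channels named after its values were seen, fell with overlapping groups (log2 fold change -0.51 ± 0.12, adjusted p = 0.0272). Ccdc146 was also among the 12 largest falls (log2 fold change -0.79 ± 0.17, adjusted p = 0.0151). Cacna1s, the L-type calcium channel of the fiber, was the 1 of 23 calcium release and reuptake genes past the threshold (4.35%, against 2.71% of all genes) and rose from 1871, 2099, 1748, 2064 and 1557 to 2352, 3004, 2633, 2812 and 2541 CPM (log2 fold change 0.51 ± 0.12, adjusted p = 0.0186). Its call was lost in 3 of the 10 fits without 1 library (adjusted p up to 0.0553, without 3mCON+RM replicate 4).

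Further lists held from 1 to 3 calls. The replication helicase genes Mcm4 (log2 fold change 0.60 ± 0.12, adjusted p = 0.00752) and Mcm7 (log2 fold change 0.39 ± 0.09, adjusted p = 0.0169) rose and the spindle gene Tpx2 fell (log2 fold change -1.01 ± 0.26, adjusted p = 0.0394), as 3 of 15 proliferation genes tested (20%, against 2.71% of all genes), and 2 passed in each of the 10 fits without 1 library. Bmp6, with overlapping groups (log2 fold change 0.50 ± 0.11, adjusted p = 0.018), and Lama5, a laminin chain (log2 fold change 0.39 ± 0.09, adjusted p = 0.0186), rose, and Vegfa, the main angiogenic factor, fell with overlapping groups (log2 fold change -0.47 ± 0.11, adjusted p = 0.0252). Each was the 1 call of its list, in shares near the 2.71% of all genes. The lists were myostatin, activin and BMP signalling (30 tested, 3.33%), laminins and integrins (29, 3.45%) and endothelial and angiogenic genes (26, 3.85%). Losses in fits without 1 library were Mcm7 (1 of the 10, adjusted p up to 0.0567, without 3mCON+RM replicate 5), Tpx2 (9 of the 10, adjusted p up to 0.12, without 3mCON+RM replicate 4), Bmp6 (2 of the 10, adjusted p up to 0.0514, without 3mCON replicate 3), Lama5 (1 of the 10, adjusted p up to 0.052, without 3mCON+RM replicate 3) and Vegfa (7 of the 10, adjusted p up to 0.082, without 3mCON+RM replicate 4). In all, 82 of the 352 genes belonged to at least 1 of the 61 lists. Of the 49 lists that are not cell type markers, 20 held no gene past the threshold with edgeR, 412 genes in all, with medians from -0.12 to 0.44, and from -0.20 to 0.62 without 3mCON+RM replicate 2. Of these genes 63 had an unadjusted p under 0.05, where 16.8% of all genes did, and DESeq2 called 9. The median of each such list moved with the fit, as the lowest and highest median over the alternative fits show. The lists included sterol synthesis (23 genes, median -0.09, -0.16 to -0.03), fatty acid synthesis (19, median 0.07, 0.03 to 0.19), glycogen and glucose transport (19, median -0.02, -0.08 to 0.03), mTORC1 effectors (21, median 0.05, 0.01 to 0.07), heat shock proteins (25, median -0.03, -0.07 to 0.01), the circadian clock (20, median -0.02, -0.11 to 0.03), myosins (16, median 0.13, 0.04 to 0.17) and the neuromuscular junction (22, median 0.04, -0.01 to 0.07). The extremes came without 3mCON replicate 3 for fatty acid synthesis (highest) and myosins (lowest) and without 3mCON+RM replicates 1 and 4 for sterol synthesis. In the list of glucocorticoid receptor targets, with a median of 0.17 and 0.03 without 3mCON+RM replicate 2, Fkbp5 came nearest, at 33.1, 63.5, 19.97, 28.96 and 27.4 CPM in the 5 3mCON libraries and 60.2, 76.6, 45.8, 68.9 and 77.4 CPM in the 5 3mCON+RM libraries (log2 fold change 0.95 ± 0.30, adjusted p = 0.112). Fkbp5 passed without 3mCON replicate 2 and with the replicate block, and 0 to 2 genes of the list passed over the fits without 1 library. Of the 63 named genes not past the threshold, 18 passed in at least 1 of the 19 alternatives.

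The same treatment in muscle without Tsc1 and in older control muscle gave a comparison in libraries that share none with the 10 above. The 3mTSCmKO libraries were part of the fit that called the 352 genes, so its filter and estimate of spread drew on them too. Of the 178 genes that rose in 3mCON, 173 were also positive with rapamycin in 3mTSCmKO (97.2%) and 147 passed there in the same direction, and of the 174 that fell, 166 were negative (95.4%) and 136 passed. Over all genes tested, the signs of both responses were the same in 67%, and 29.1% passed in 3mTSCmKO with the same sign. Of the falling genes, 5 passed there in the opposite direction, and of the rising genes 0. The median log2 fold change of the rising genes was 0.44 in 3mCON and 0.53 in 3mTSCmKO, and that of the falling genes -0.50 and -0.63. The rapamycin effect itself differed between 3mCON and 3mTSCmKO in 1194 genes, or 9.18% of those tested, and 77 of them were among the 352.

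Genes whose response differed by genotype included several named above. For Cebpg the log2 fold changes were -0.52 in 3mCON and -1.15 in 3mTSCmKO (interaction adjusted p = 0.00365), for Bcat2 -0.61 and -1.79 (adjusted p = 0.00179) and for Sesn3 -0.66 and -1.42 (adjusted p = 0.0162). Pcca fell in 3mCON (-0.43) with 0.06 in 3mTSCmKO (adjusted p = 0.00676), and Vegfa had -0.47 in 3mCON and 0.32 in 3mTSCmKO, where it rose (adjusted p = 0.00349). For Eef2 (0.92 and 1.24, interaction adjusted p = 0.0938) and Eif4b (0.88 and 1.14, adjusted p = 0.185) the difference did not pass. Of the 18 atrophy ligases, 8 differed between the genotypes, where 9.18% of all genes did: Trim63 had -0.21 in 3mCON and -1.84 in 3mTSCmKO (adjusted p = 0.00902), and Fbxo32 0.01 and -1.35 (adjusted p = 0.016).

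In 9mCON, 170 of the 178 rising genes were positive (95.5%) and 133 passed in the same direction. Of the 174 falling genes, 168 were negative (96.6%) and 71 passed in the same direction. Over all genes, the signs were the same in 65.6%, and 8.9% passed in 9mCON with the same sign. Of the rising genes, 1 passed in the opposite direction, and of the falling genes 0. The spread was wider at that age. The difference between 3mCON and 9mCON in the response passed in 127 genes, or 0.938% of those tested in the fit of 40 libraries, and 1 of the 352 was among them: Dpep1 rose in 3mCON (0.83) and fell in 9mCON (-0.91, interaction adjusted p = 0.0202). Eef2 had 0.92 and 1.16, and Eif4b 0.88 and 1.32 (interaction adjusted p = 0.832 and 0.195). Of the 25 macrophage and antigen presentation genes 11 differed, where 0.938% of all genes did, with list medians of 0.44 in 3mCON and -1.46 in 9mCON. In the marker lists, 6 of 8 macrophage and 3 of 9 fibroblast markers differed. How far these counts depend on single libraries or on the cell content of the samples was not tested. Among the 20 genes of tendon and small proteoglycans 3 differed, with medians of 0.07 (0.25 without 3mCON+RM replicate 2) and -1.16. The count of 127 depended on single libraries. It was 226 without 3mCON replicate 1, 261 without 3mCON+RM replicate 2 and 270 without 9mCON+RM replicate 3. It fell to 64, 38 and 53 without 3mCON replicates 2, 4 and 5, to 71, 39 and 61 without 3mCON+RM replicates 1, 4 and 5, to 77 and 45 without 9mCON replicates 1 and 5, and to 83, 37 and 39 without 9mCON+RM replicates 1, 2 and 5. Age, and whatever differed in preparation between the ages, cannot be told apart.

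**Figure D5:**
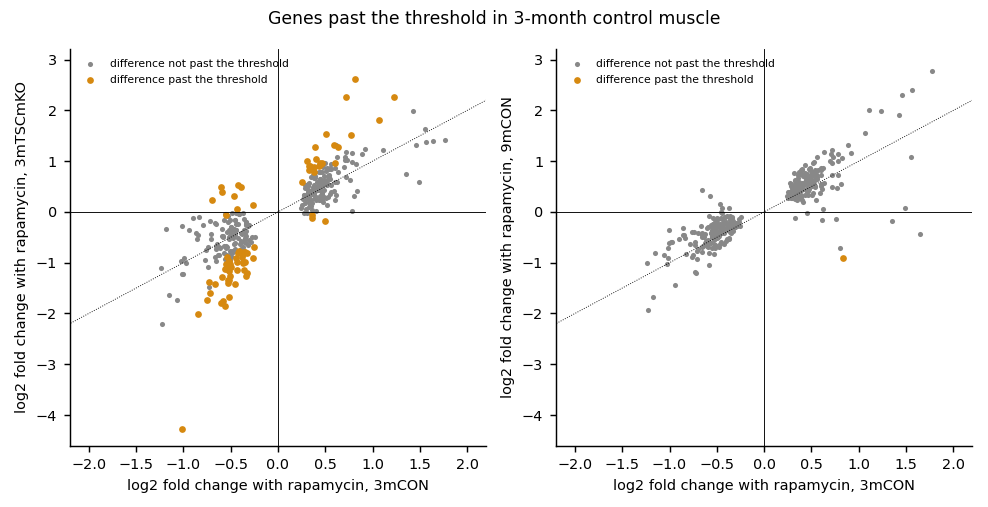
Log2 fold change with rapamycin in 3mCON (horizontal) against that in 3mTSCmKO (left) and 9mCON (right) for the 352 genes past the threshold in 3mCON. Orange points are those whose difference between the responses passed, 77 on the left and 1, Dpep1, on the right, and the dotted line marks equal values. Of the points, 339 on the left and 338 on the right lie in the lower left and upper right quadrants.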

How the data were processed

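Poly(A) RNA from whole EDL lysates was sequenced, per the study's methods. A figure legend of the study gives 1 muscle sample per animal for the groups without rapamycin. Per the labels and the study's methods, the authors trimmed reads with Cutadapt 1.9.1, assigned them with kallisto 0.43.1 to Ensembl transcripts (GRCm38; protein-coding ones per the methods, although the table lists noncoding genes too, so that the set is not settled), shared reads that hit several transcripts equally and summed them per gene. The deposited estimated counts are whole numbers, and the authors derived the deposited TPM from them. Since shared reads are split, near-identical genes are uncertain. Total counts ran from 8883870 to 35224669 in the 10 libraries compared.

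Groups were taken from the labels. Counts of genes with at least 1 CPM in 5 libraries were scaled by TMM and tested with edgeR 4.0.16 in R 4.3.3 (quasi-likelihood test, group means over the 20 libraries of 3 months). P-values were adjusted by Benjamini-Hochberg over all 13006 genes, with a threshold of 0.05. CPM values use TMM-scaled library sizes. Differences between responses were interaction terms, in the same fit for 3mTSCmKO and over 40 libraries for 9mCON. Alternatives were other libraries in the fit, scalings and filters, insert size, the replicate number as a block, DESeq2 1.42.0, limma 3.58.1 on log2(TPM + 1) and each library left out. Where nothing on the labels shows separate handling, p-values measure the spread between these libraries.

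Some genes and a start window are not reported here. Named were otherwise Tsc1, Mtor, Rptor and Fkbp1a, the 12 largest rises and 12 largest falls (mean of at least 5 CPM, no overlap), and per gene list up to 4 genes past the threshold, or 2 where none passed. Genes named after their values were seen are outside these 142, and their calls in fits without 1 library are not given singly. Members, gene lists and tests were chosen with earlier results of these data known. Shared 31-base words and pyrimidine runs came from GENCODE M21 and RefSeq, and RefSeq promoters matched 104 of 142 named genes. On simulated counts of this comparison (12914 genes), the test recovered 77% of 100 changes of 1.5-fold and 96% of 100 of 2-fold, with 6 of 12714 unchanged genes called. The changed genes had a mean of at least 5 CPM. Each gene was drawn separately around the same mean in all groups apart from its change. Genes of lower level and shifts shared within a library were therefore not tested.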

Additional observations from a re-analysis of the deposited data

Results flagged for a closer look

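Some of the 142 genes of the naming rule had 1 library far from the other 4 of its group (Dixon's test at 95%, groups of 5 samples). This held in 17 of 284 groups tested, and chance flags about 1 in 20 groups. In 3mCON+RM replicate 2, the values were 2.96 CPM for Ccdc146, 11.0 CPM for Gsta4, 458 CPM for Dcn, 1.58 CPM for Fcgr3, 22.7 CPM for Pdgfra, 4.00 CPM for C1qb and 2.14 CPM for Ptprc. In other rapamycin libraries, Vars was at 44.7 CPM and Nfe2l1 at 626 CPM in replicate 1, Dlat at 165 CPM in replicate 4 and Ppm1k at 18.5 CPM in replicate 5. In vehicle libraries, Ctps was at 15.4 CPM in replicate 1, Rps6kb1 at 87.4 CPM in replicate 2, Kars at 106 CPM, Trim55 at 67.1 CPM and Car3 at 2650 CPM in replicate 3, and Nrep at 156 CPM in replicate 5.

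The rapamycin effect of 21 named genes differed between 3mCON and 3mTSCmKO (edgeR interaction, adjusted p under 0.05), given here as the log2 effect in 3mCON minus that in 3mTSCmKO. Positive differences were those of Tpx2 (3.27), Glul (1.67), Fkbp5 (1.54), Kcnab1 (0.99), Vldlr (0.971), Prkag3 (0.959), Selenos (0.819), Sesn3 (0.755), Trim55 (0.67), Cebpg (0.637), Trim32 (0.592), Map1lc3a (0.426) and Wipi1 (0.34). Negative differences were those of Epb41l4aos (-1.03), Srm (-0.875), Vegfa (-0.783), Dglucy (-0.75), 1110038B12Rik (-0.749), Pcca (-0.486), Rpl22l1 (-0.484) and Impdh2 (-0.367). Tpx2, a spindle protein, had -1.01 in 3mCON and -4.28 in 3mTSCmKO.

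Between 3mCON and 9mCON, 9 named genes differed in the same way, all with a positive difference (3mCON minus 9mCON): Kera (2.99), Cd163 (2.6), Fcgr3 (2.59), C1qb (2.48), Dpep1 (1.74), Dpt (1.72), Pdgfra (1.57), Dcn (1.52) and Podn (1.33). Of these, only Dpep1 had passed in 3mCON.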

How the results depend on the processing

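Of the 352 genes changed (178 higher, 174 lower), 92 (49 and 43) passed with all 40 libraries and 574 (277 and 297) with DESeq2, while library totals as the only scaling gave 116 higher. Leaving out 1 library gave 176 to 305 changed, 86 to 168 higher and 90 to 149 lower genes. Higher genes fell to 100 without 3mCON replicate 1 and, in 3mCON+RM, to 102, 103 and 86 without replicates 2, 3 and 4; lower genes fell to 108, 90 and 114 without replicates 3, 4 and 5. Genes differing from 3mTSCmKO numbered 467 with all 40 libraries (917 to 1262 without 1 library). Those differing from 9mCON numbered 48 with the 20 control libraries, 77 without the filter and 255 with DESeq2, and 37 to 270 without 1 library. With the replicate block, 334 genes passed (161 and 173), 243 of them among the 352. Same-numbered libraries did not deviate together (correlations of deviations from the group means -0.0843 to 0.193), so that the numbers were not taken to pair them. Of 79 named genes past the threshold, 47 kept their call without any 1 library, 33 in all 19 alternatives, 45 lost it with 40 libraries and 11 with the replicate block. In these alternatives 0 reversed. Upper-quartile factors, the unfiltered table, TPM, insert size and the 10 libraries alone left the changed count within 1.5 times (257 to 419).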
